A study of Mus musculus with 12 samples.

Results

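The 4 mouse genes that form the cytosolic iron-sensing circuit, *Aco1*, *Ireb2*, *Fbxl5* and *Herc2*, were followed across iron chelation and *Ncoa4* knockdown in HT22 cells. They were taken by name, not by their values, and are 4 of the 24343 uniquely named genes in the expression tables. All 4 passed the filter on low values (0.5 FPKM or more in 3 or more of the 12 libraries) and so were among the 11924 genes tested. FPKM stands for sequenced fragments per kilobase of transcript after scaling for the size of each library, so it is a level per length. It can be set side by side between genes as far as the transcript lengths used hold, and these are unknown. How the deposited values were scaled between libraries is not given in the sources used here.

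HT22 is an immortalized mouse hippocampal line, and every library came from bulk RNA of these cells after liposome delivery of an siRNA. siControl cells received the control siRNA at normal iron, and siNCOA4 cells received siRNA against *Ncoa4*, the cargo receptor that brings ferritin to the lysosome. The siControl+DFO and siNCOA4+DFO cells received the same siRNAs plus the iron chelator deferoxamine (DFO) at 100 µM for 24 h. Each of the 4 groups held 3 biological replicates, and whether these came from separate transfection days is not given in the sources used here, so p-values measure the spread between these libraries.

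The targeted transcript followed the labels. *Ncoa4* stood at 6.46, 6.19 and 6.02 FPKM in siControl replicates 1 to 3 and at 0.770, 0.952 and 0.891 FPKM in siNCOA4, and with DFO at 8.70, 8.31 and 7.52 FPKM in siControl+DFO and at 0.850, 1.29 and 1.57 FPKM in siNCOA4+DFO. The label of hippocampal neuron cells was not borne out by most neuronal markers: 9 of 10, *Map2*, *Rbfox3* and *Snap25* among them, stayed below 0.5 FPKM in every library and *Gad1* was listed at 0. The other marker, *Tubb3*, was present, with means of 7.77 FPKM in siControl, 5.34 in siNCOA4, 12.5 in siControl+DFO and 7.41 in siNCOA4+DFO. A summed level of 4 fibroblast markers ran from 658 to 776 FPKM in siControl, from 426 to 523 FPKM in siNCOA4, from 133 to 184 FPKM in siControl+DFO and from 190 to 273 FPKM in siNCOA4+DFO, so it was lower with DFO, and its part in the changes described below was not tested. The summed level of 4 astrocyte markers was nearly all *Slc1a3* without DFO and mostly *Slc1a3* with it. *Slc1a3* had means of 42.1, 24.0, 3.59 and 7.13 FPKM in siControl, siNCOA4, siControl+DFO and siNCOA4+DFO, while *Aldh1l1* went the other way, with means of 0.324, 0.811, 0.679 and 2.50 FPKM. *Gfap* stayed at or below 0.685 FPKM and *Aqp4* at or below 0.0596 FPKM in every library. In bulk RNA, fewer cells of a type and less RNA per cell cannot be told apart. FPKM carry no read counts, so the depth behind each value is unknown, and the summed FPKM of a library lay between 565558 and 737313 and was higher in all 6 libraries with DFO than in the 6 without.

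Cells read their cytosolic iron through a pair of related RNA-binding proteins. IRP1, the product of *Aco1*, is an aconitase while it holds an iron-sulfur cluster and binds RNA once that cluster is lost. IRP2, the product of *Ireb2*, has no such cluster and is controlled through its destruction, which the ubiquitin ligase subunit FBXL5 directs when iron and oxygen are present. HERC2, a very large ubiquitin ligase, directs the turnover of FBXL5 itself. Both IRPs bind the iron responsive element (IRE), a short RNA hairpin, and they block translation from a 5′ UTR hairpin and protect the transcript from decay through 3′ UTR hairpins. Since this control acts largely on proteins, transcript levels describe only one layer of it.

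The hairpins of the ferritin and transferrin receptor transcripts are shown because these are the best known RNAs that the IRPs bind, and their levels are given further on. Each is written 5′ to 3′ on the transcript's strand from the GRCm38 mouse genome, with the 6-base loop in capitals and the stem in lower case. The 5 bases on each side of the loop pair with each other, with an unpaired c just before them. Of the outer 5 bases on each side, 4 pair in *Fth1* and *Ftl1* and 5 in each *Tfrc* hairpin, G with T allowed. The heavy and light ferritin chains each had 1 match in the 5′ UTR, and the transferrin receptor had 4 in its 3′ UTR, which is what a strict letter search found and not a count of all its hairpins.
*Fth1* 5′ UTR, chr19:9982733-9982759, plus strand: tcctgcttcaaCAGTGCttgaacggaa
*Ftl1* 5′ UTR, chr7:45459780-45459806, minus strand: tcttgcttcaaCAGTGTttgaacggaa
*Tfrc* 3′ UTR, chr16:32631220-32631246, plus strand: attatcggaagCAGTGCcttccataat
*Tfrc* 3′ UTR, chr16:32631599-32631625, plus strand: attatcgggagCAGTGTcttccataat
*Tfrc* 3′ UTR, chr16:32631664-32631690, plus strand: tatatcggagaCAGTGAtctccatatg
*Tfrc* 3′ UTR, chr16:32631711-32631737, plus strand: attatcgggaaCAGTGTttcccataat

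These matches came from a search of annotated transcripts on the sense strand for a loop of the letters CAGTGN flanked by 5 bases on each side that pair with each other, G with T allowed, with an unpaired C just before them. It found 6 of the 10 genes in a list of known IRE transcripts and 294 of 21901 protein-coding genes (1.34%). None of the 4 iron-sensing genes held a match, which says only that this strict pattern of loop, paired bases and unpaired C was not found in their annotated protein-coding transcripts.

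In the GRCm38 build with GENCODE M21 models, *Aco1* lies on the plus strand at chr4:40143081-40198338 and *Ireb2* on the plus strand at chr9:54863789-54912530. *Fbxl5* lies on the minus strand at chr5:43744615-43821638, where 98 of its exonic bases fall under *Bst1* on the opposite strand. *Herc2* spans 181605 bases on the plus strand at chr7:56050196-56231800, with up to 93 exons in a coding transcript. Of all 75-base stretches of their transcripts, 0.238% of those of *Fbxl5* also occur in another gene, *Bst1*, and none of those of the other 3 do.

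At normal iron with the control siRNA all 4 transcripts were well above the middle of the tested genes. *Fbxl5* was highest with 29.7 ± 2.09 FPKM (mean ± SD, n = 3), above 77.85% of the genes tested, and *Ireb2* followed with 25.4 ± 2.46 FPKM. *Herc2* held 19.4 ± 2.80 FPKM and *Aco1* 17.2 ± 0.846 FPKM, above 63.63% of the genes tested. Across libraries the levels of *Ireb2* and *Fbxl5* overlapped, as did those of *Herc2* and *Aco1*, although within each of the 3 siControl libraries *Fbxl5* was above *Ireb2* and *Herc2* above *Aco1*. With DFO the order changed: *Ireb2* then stood highest, above 80.52% of the genes tested in siControl+DFO, and *Aco1* lowest, above 49.64%.

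**Figure D1:**
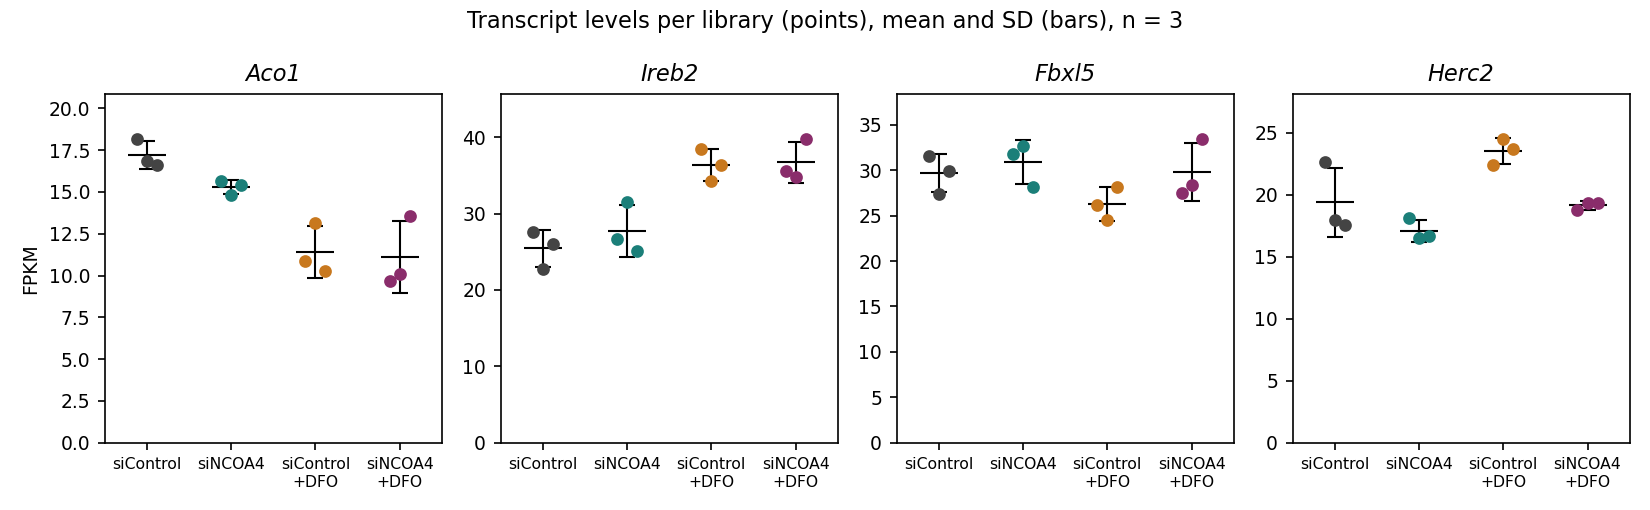
FPKM of *Aco1*, *Ireb2*, *Fbxl5* and *Herc2* in each library (points) with the group mean and SD (bars, n = 3 per group) on axes that start at 0. *Aco1* lay between 14.8 and 18.2 FPKM without DFO and between 9.66 and 13.6 FPKM with it, and *Ireb2* between 22.7 and 31.5 FPKM without DFO and between 34.3 and 39.8 FPKM with it.

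*Aco1*, the cluster-bearing sensor, fell with DFO. Its level was 18.2, 16.9 and 16.6 FPKM in the 3 siControl replicates, 15.6, 14.8 and 15.4 FPKM in siNCOA4, 10.9, 13.2 and 10.2 FPKM in siControl+DFO, and 9.66, 10.1 and 13.6 FPKM in siNCOA4+DFO. Every library with DFO was below every library without it, while the DFO groups overlapped each other. Against siControl, the change in siControl+DFO was -0.59 on the log2(FPKM + 0.1) scale (SE 0.133, adjusted p = 0.00246, limma with Benjamini-Hochberg adjustment over all genes tested), a ratio of 0.663. The combined siNCOA4+DFO group differed from siControl by -0.64 (adjusted p = 0.00163) and from siNCOA4 by -0.47 (adjusted p = 0.0122), and the latter call was lost without siNCOA4+DFO replicate 1 (adjusted p = 0.054). The 3 siNCOA4 libraries were all below the 3 siControl libraries, but the difference of -0.17 did not pass the test (adjusted p = 0.466, 95% interval -0.46 to 0.12).

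*Ireb2*, the sensor without a cluster, rose with DFO. It stood at 27.5, 22.7 and 26.1 FPKM in siControl, 26.6, 31.5 and 25.0 FPKM in siNCOA4, 38.5, 34.3 and 36.3 FPKM in siControl+DFO, and 35.6, 34.8 and 39.8 FPKM in siNCOA4+DFO. All 6 libraries with DFO exceeded all 6 without it, and within each iron condition the siRNA groups overlapped. The log2 change was 0.52 in siControl+DFO against siControl (SE 0.103, adjusted p = 0.00117, limma), a ratio of 1.43. It was 0.53 in siNCOA4+DFO against siControl (adjusted p = 0.00108) and 0.41 in siNCOA4+DFO against siNCOA4 (adjusted p = 0.0070). Knockdown alone gave 0.12 (adjusted p = 0.502, 95% interval -0.10 to 0.35).

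*Fbxl5*, the iron-stabilized receptor that marks IRP2 for destruction, did not pass the test in any of the 6 comparisons. Its level was 31.6, 27.4 and 30.0 FPKM in siControl, 31.8, 32.6 and 28.1 FPKM in siNCOA4, 26.2, 24.5 and 28.2 FPKM in siControl+DFO, and 27.5, 28.4 and 33.4 FPKM in siNCOA4+DFO. Each group overlapped siControl. The difference between siControl+DFO and siControl was -0.17 (adjusted p = 0.158, 95% interval -0.39 to 0.04, limma). Between siNCOA4+DFO and siControl it was 0.00 (adjusted p = 0.983, 95% interval -0.21 to 0.22).

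*Herc2*, which directs FBXL5 turnover, rose with DFO in siControl cells. It stood at 22.6, 17.96 and 17.6 FPKM in siControl, 18.1, 16.5 and 16.6 FPKM in siNCOA4, 22.4, 24.5 and 23.7 FPKM in siControl+DFO, and 18.7, 19.3 and 19.4 FPKM in siNCOA4+DFO. siControl replicate 1 was above the lowest siControl+DFO library, so these groups overlapped. The log2 change in siControl+DFO against siControl was 0.29 (SE 0.0985, adjusted p = 0.0274, limma), and it was lost without siControl replicate 2 (adjusted p = 0.102), siControl replicate 3 (0.111), siControl+DFO replicate 2 (0.0856) or siControl+DFO replicate 3 (0.0666), and in a fit of the compared groups alone (0.0693). In the double condition the gene was close to its siControl level, with a log2 difference of -0.01 (adjusted p = 0.950). The 3 siNCOA4+DFO libraries were below the 3 siControl+DFO libraries, a difference of -0.29 that missed the threshold (adjusted p = 0.0605, unadjusted p = 0.0112, limma). This difference passed in 1 of 12 fits that left out a library, without siControl replicate 1 (adjusted p = 0.0195), and in 0 of 9 other settings. That library is in neither group compared, so leaving it out did not alter the difference itself.

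Counted over the circuit, DFO in siControl cells changed 3 of the 4 genes, *Ireb2* and *Herc2* upward and *Aco1* downward, in a comparison in which 53.4% of all tested genes were called (27.7% higher and 25.7% lower). The combined treatment against siControl changed 2 of 4, beside 48.8% of all tested genes (25.4% higher and 23.4% lower), and DFO within *Ncoa4*-depleted cells changed 2 of 4, beside 42.7% (23.1% higher and 19.6% lower). Those shares are near the background, so the counts are no result about these 4 genes. Knockdown at normal iron changed 0 of 4 by limma, with 0 of 4 at an unadjusted p under 0.05, beside 11.7% of all tested genes. Knockdown under DFO changed 0 of 4 (1 of 4 unadjusted, *Herc2*), beside 16.5%. No member reached a fold change above 2 in any comparison. Of all tested genes 18.8% passed with such a change in siControl+DFO against siControl, 15.2% in siNCOA4+DFO against siControl, 11.4% in siNCOA4+DFO against siNCOA4, 2.09% in siNCOA4+DFO against siControl+DFO, 1.78% in siNCOA4 against siControl and 0.813% for the interaction.

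The comparisons of siControl+DFO and of siNCOA4+DFO against siControl share their control libraries, so whether the DFO response depended on *Ncoa4* was read from the interaction term. That term passed for 0 of 4 genes by limma (0 of 4 unadjusted), beside 2.1% of all tested genes. On the log2 scale it was 0.12 for *Aco1* (95% interval -0.29 to 0.53), -0.11 for *Ireb2* (-0.43 to 0.21), 0.12 for *Fbxl5* (-0.18 to 0.42) and -0.12 for *Herc2* (-0.42 to 0.18). The interval for *Aco1* reaches 0.53 beside a DFO change of -0.59, and that for *Herc2* reaches -0.42 beside a DFO change of 0.29, so these libraries do not settle whether the DFO changes depended on *Ncoa4*.

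**Figure D2:**
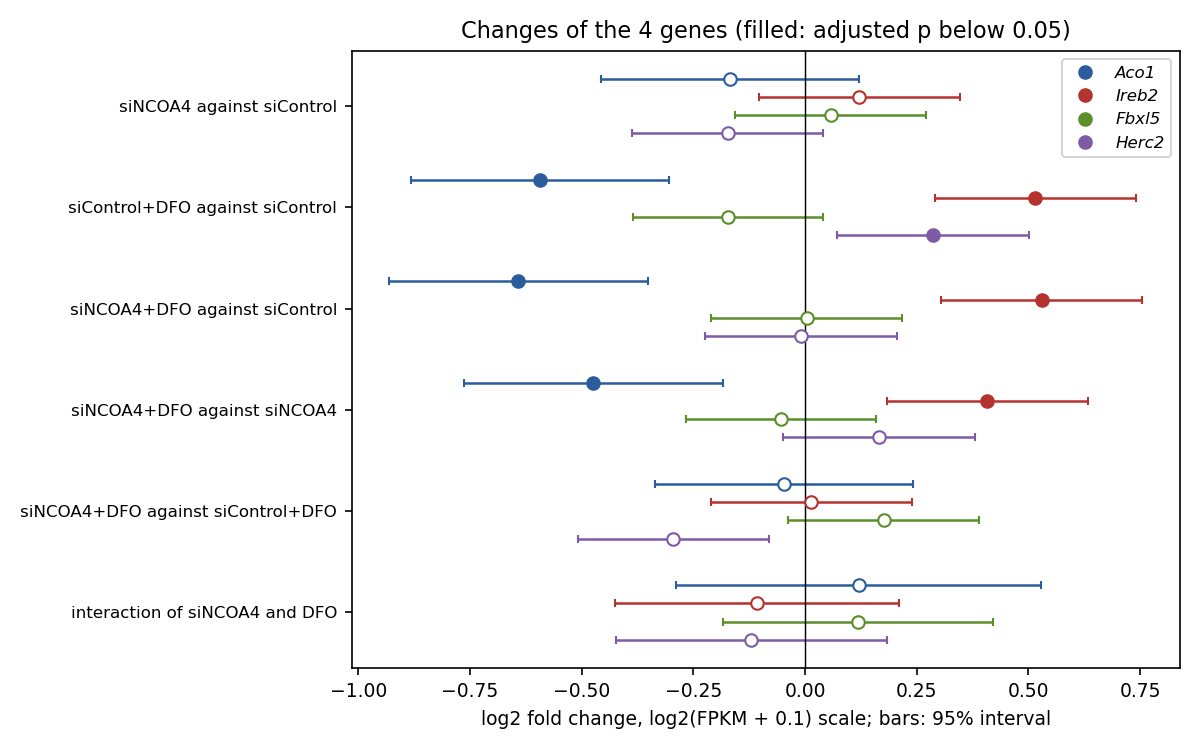
Log2 differences in log2(FPKM + 0.1) of the 4 genes in the 6 comparisons (points) with 95% intervals (lines), from limma over 12 libraries. *Aco1* lies below 0 and *Ireb2* above 0 in the 3 comparisons of a DFO group with a group without DFO, and the intervals of all 4 interaction terms include 0.

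Scaling touched some of these calls. By the median of ratios the deposited values were already nearly even, with factors from 1.0035 to 1.013 over the 12 libraries, although their sums differed. When every library was scaled to the same summed FPKM, an alternative chosen after the sums were seen, the median of all tested genes itself moved to -0.177 in siControl+DFO against siControl and to -0.304 in siNCOA4+DFO against siNCOA4. *Aco1* in siControl+DFO then stood at -0.76 (adjusted p = 0.000716) and *Ireb2* at 0.35 (adjusted p = 0.00728), so both kept their direction. *Herc2* no longer passed (0.12, adjusted p = 0.382) and *Fbxl5* did (-0.34, adjusted p = 0.00966). In siNCOA4+DFO against siNCOA4, *Ireb2* no longer passed (0.10, adjusted p = 0.372) and *Fbxl5* did (-0.36, adjusted p = 0.00815). Relative to the moved median, the siControl+DFO differences were -0.59 for *Aco1*, 0.52 for *Ireb2*, -0.17 for *Fbxl5* and 0.29 for *Herc2*. That these match the values without that scaling follows from the method, since a common factor per library moves all genes and their median almost alike.

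A ratio of a pair of genes within a library does not depend on how libraries were scaled. The *Aco1* to *Ireb2* ratio was 0.660, 0.741 and 0.636 in siControl and 0.587, 0.471 and 0.616 in siNCOA4, and it was 0.282, 0.385 and 0.282 in siControl+DFO and 0.271, 0.290 and 0.342 in siNCOA4+DFO. No library with DFO reached the ratio of any library without it. The mean log2 ratio differed by -1.11 between siControl+DFO and siControl (exact two-sided permutation test, p = 0.1, adjusted over 10 ratio tests 0.143), and 3 libraries against 3 cannot give a p below 0.1. Between siNCOA4+DFO and siNCOA4 it was -0.88 (exact permutation p = 0.1, adjusted 0.143). The siNCOA4 ratios were also all below the siControl ratios, with a difference of -0.29 (exact permutation p = 0.1, adjusted 0.143), and the DFO groups overlapped (-0.06, exact permutation p = 0.7).

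The *Fbxl5* to *Ireb2* ratio sets the transcript of the receptor against that of its substrate. It was 1.147, 1.21 and 1.1496 in siControl and 1.196, 1.04 and 1.12 in siNCOA4, so *Fbxl5* had the higher FPKM in all 6 libraries without DFO. It was 0.681, 0.716 and 0.776 in siControl+DFO and 0.772, 0.817 and 0.841 in siNCOA4+DFO, so *Ireb2* had the higher FPKM in all 6 libraries with DFO. Which transcript was the more abundant depends on the transcript lengths behind the FPKM, which are unknown, while the difference of the ratio between groups does not. The log2 difference from siControl was -0.69 in siControl+DFO and -0.53 in siNCOA4+DFO, and from siNCOA4 it was -0.46 in siNCOA4+DFO (exact permutation p = 0.1 in each, adjusted 0.143). The groups with DFO overlapped and differed by 0.16 (exact permutation p = 0.2), and those without it overlapped and differed by -0.06 (exact permutation p = 0.4).

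**Figure D3:**
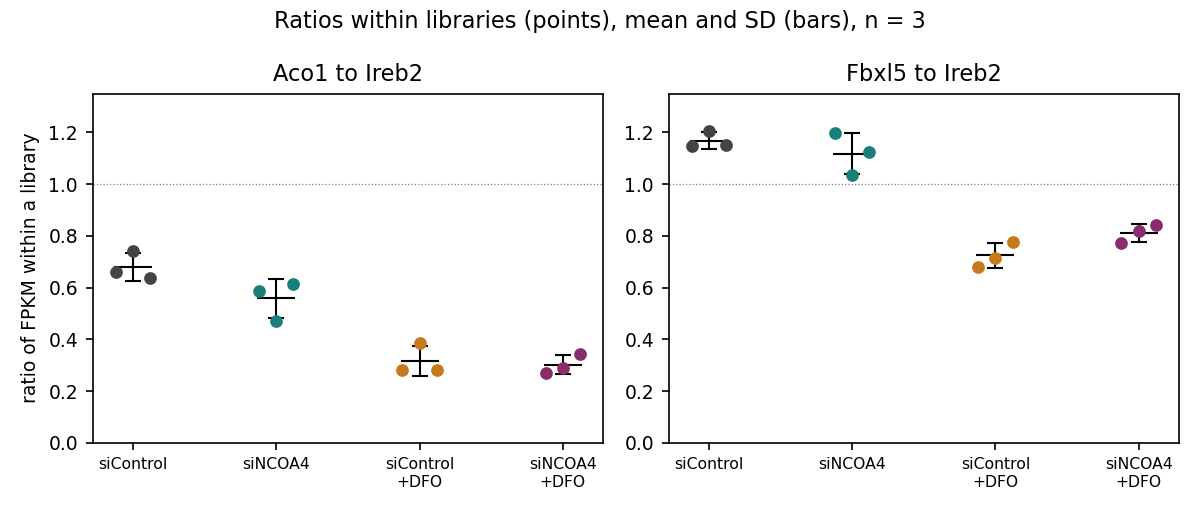
Ratios of FPKM within each library (points) with mean and SD (bars, n = 3), for *Aco1* to *Ireb2* on the left and *Fbxl5* to *Ireb2* on the right, with a dotted line at equal FPKM. The *Fbxl5* to *Ireb2* ratio lies between 1.04 and 1.21 without DFO and between 0.681 and 0.841 with it.

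Both IRP transcripts were also summed within each library. Summed IRP transcript was 42.6 ± 3.05 FPKM in siControl, 43.0 ± 3.02 FPKM in siNCOA4, 47.8 ± 1.40 FPKM in siControl+DFO and 47.8 ± 4.77 FPKM in siNCOA4+DFO (mean ± SD, n = 3). The share of that sum held by *Aco1* was 40.4% ± 1.93 in siControl, 35.7% ± 3.26 in siNCOA4, 23.9% ± 3.34 in siControl+DFO and 23.1% ± 2.12 in siNCOA4+DFO. The 3 siControl+DFO sums were above all 6 sums without DFO, but narrowly (lowest 46.57 FPKM in siControl+DFO, highest 46.36 FPKM in siNCOA4). The siNCOA4+DFO sums overlapped those of every other group. Unlike the share held by *Aco1*, these sums depend on how libraries were scaled. The summed FPKM of all genes was also higher with DFO, and whether summed IRP transcript rose beyond that was not tested. The shares with DFO, at most 27.8%, were all below those without it, at least 32.0%.

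Of the known IRE transcripts, 7 of 10 were tested, since *Alas2* and *Slc40a1* stayed too low and *Epas1* was listed at 0 throughout. *Tfrc*, which imports transferrin-bound iron, stood at 72.5, 68.6 and 69.8 FPKM in siControl and at 318.5, 318.4 and 348 FPKM in siControl+DFO, a log2 change of 2.22 (SE 0.0869, adjusted p = 3.1e-09, limma). It was 69.9, 80.02 and 66.0 FPKM in siNCOA4 and 224, 233 and 264 FPKM in siNCOA4+DFO. The DFO groups did not overlap, and under DFO the knockdown changed *Tfrc* by -0.45 (adjusted p = 0.0050), while the interaction of -0.48 missed the threshold (adjusted p = 0.0649, unadjusted p = 0.00198). That interaction passed with equal summed FPKM (-0.62, adjusted p = 0.0168) and without siNCOA4+DFO replicate 3 (-0.55, adjusted p = 0.0444).

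The other IRE transcripts named here were taken after their values were seen. In siControl+DFO against siControl, 3 of the 7 rose and 2 fell (3 and 3 with equal summed FPKM), beside 53.4% of all tested genes, with a list median of -0.15 beside -0.01 for all tested genes. *Slc11a2*, the divalent metal transporter, rose by 0.67 (adjusted p = 0.000243) and *Cdc42bpa*, a kinase gene listed as an IRE transcript from background knowledge in which the letter search found no match, by 0.38 (adjusted p = 0.000636). The ferritin chains fell, *Fth1* by 0.44 (adjusted p = 0.00288, group means 1314 and 970 FPKM) and *Ftl1* by 0.36 (adjusted p = 0.0178, group means 907 and 707 FPKM). The *Ftl1* call was lost without siControl replicate 2 (adjusted p = 0.053), siControl replicate 3 (0.0624) or siControl+DFO replicate 3 (0.0714). In siNCOA4+DFO against siControl, 2 rose (*Tfrc* and *Cdc42bpa*) and 2 fell (*Fth1* and *Ftl1*), beside 48.8% of all tested genes. There the *Ftl1* call was lost without siControl replicate 2 (adjusted p = 0.0612), siControl replicate 3 (0.0715) or siNCOA4+DFO replicate 3 (0.0792), and in a fit of the compared groups alone (0.0651). *Slc11a2* did not pass there (0.12, adjusted p = 0.396), and under DFO the knockdown changed it by -0.56 (adjusted p = 0.0057), with an interaction of -0.50 that did not pass (adjusted p = 0.112). Knockdown at normal iron changed 1 of 7, *Cdc42bpa* (0.25, adjusted p = 0.0386, lost in 9 of 12 fits that left out a library), beside 11.7% of all tested genes. The interaction passed for 0 of 7 by limma (2 of 7 unadjusted), beside 2.1%, and for 1, *Tfrc*, in the alternatives given above.

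**Figure D4:**
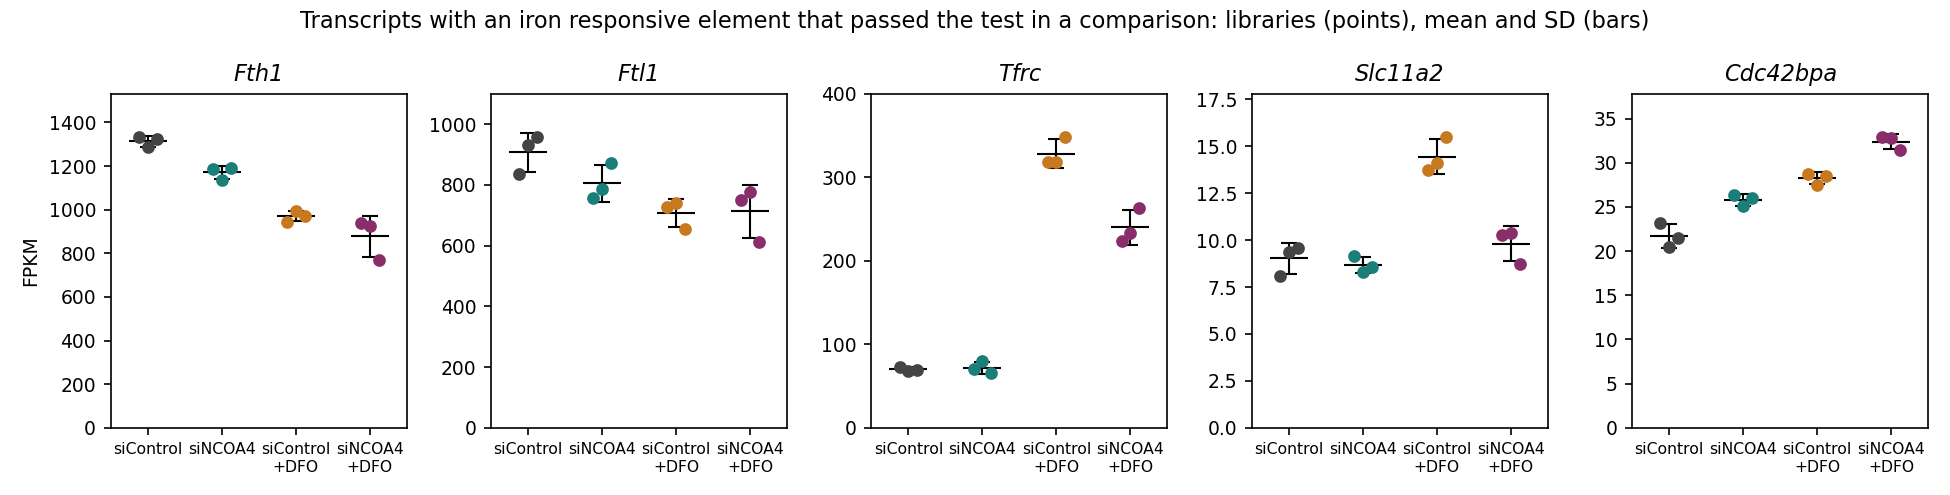
FPKM of the 5 IRE transcripts that passed the test in at least 1 comparison, per library (points) with mean and SD (bars, n = 3), each on its own axis from 0. *Fth1* and *Ftl1* are lower with DFO than in siControl, and *Tfrc* with DFO is lower in siNCOA4 cells (mean 240.2 FPKM) than in siControl cells (mean 328 FPKM).

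IRP1 needs its cluster to be built, and the cytosolic iron-sulfur assembly machinery does this. All 10 of its listed genes were tested. In siNCOA4+DFO against siNCOA4, 0 of 10 passed by limma (1 of 10 unadjusted), beside 42.7% of all tested genes. With equal summed FPKM, which moved the median of all genes there to -0.304, 6 of 10 fell, where 6310 of the 11924 tested genes passed. *Fam96a*, whose product matures IRP1, rose with the knockdown at either iron level, by 0.37 at normal iron (adjusted p = 0.0230) and by 0.36 under DFO (adjusted p = 0.0199). Its FPKM were 38.0, 36.8 and 44.0 in siControl and 52.6, 51.0 and 49.6 in siNCOA4, without overlap, and 39.6, 35.1 and 34.4 in siControl+DFO and 42.6, 46.6 and 51.2 in siNCOA4+DFO, also without overlap. It was the 1 listed gene that passed in each of these comparisons, beside 11.7% and 16.5% of all tested genes. At normal iron its call was lost without any 1 siNCOA4 library or without siControl replicate 1 or 2 (adjusted p from 0.0532 to 0.0849), and under DFO without siControl+DFO replicate 2 or 3 or siNCOA4+DFO replicate 3 (0.0676 to 0.0709). With DFO in siControl cells, *Ndor1* (0.52, adjusted p = 0.0300) and *Glrx3* (0.69, adjusted p = 0.0479) rose and none fell, beside 53.4% of all tested genes. The *Glrx3* call was lost in 10 of 12 fits that left out a library. The *Ndor1* call was lost without siControl replicate 3, siControl+DFO replicate 2 or siControl+DFO replicate 3 (adjusted p from 0.0769 to 0.116). Both were lost with equal summed FPKM, at adjusted p = 0.150 and 0.118.

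FBXL5 works as the substrate receptor of an SCF ligase, which also holds an adaptor, a cullin and a RING subunit. All 5 listed subunits and regulators were tested. *Skp1a*, the adaptor that F-box proteins bind, fell with DFO: it stood at 210, 209 and 218 FPKM in siControl and at 144, 128 and 133 FPKM in siControl+DFO, a log2 change of -0.65 (adjusted p = 5.6e-05, limma). Between siNCOA4, at 222, 246 and 229 FPKM, and siNCOA4+DFO, at 137, 137 and 168 FPKM, the change was -0.66 (adjusted p = 8.1e-05). *Cand1*, which exchanges substrate receptors on cullins, also fell in both, by 0.27 (adjusted p = 0.00906) and by 0.47 (adjusted p = 0.000348). In siControl+DFO against siControl 2 of the 5 fell and 1, *Cul1*, rose (0.24, adjusted p = 0.0301), beside 53.4% of all tested genes. The *Cul1* call was lost with equal summed FPKM (adjusted p = 0.486) and without siControl replicate 2 or siControl+DFO replicate 1 or 3 (0.0742 to 0.113). With equal summed FPKM, which moved the median of all genes there to -0.177, 4 of the 5 fell and 0 rose. In siNCOA4+DFO against siNCOA4, 3 of 5 fell, *Rbx1* included (-0.60, adjusted p = 0.00265), beside 42.7%. With so few genes, these counts are no result about the ligase. Knockdown at normal iron changed 0 of 5 by limma (1 of 5 unadjusted), beside 11.7%, and under DFO 0 of 5 (2 of 5 unadjusted), beside 16.5%.

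Among the relatives of FBXL5, the F-box proteins with leucine-rich repeats, 17 of 21 genes were tested, *Fbxl5* included. With DFO in siControl cells 4 rose and 4 fell, and in the combined group against siControl 5 rose and 4 fell, beside 53.4% and 48.8% of all tested genes. In siNCOA4+DFO against siNCOA4, 4 rose and 3 fell, beside 42.7%. With equal summed FPKM these counts became 3 up and 8 down, 4 up and 7 down, and 0 up and 7 down. In the same order, that scaling moved the median of all tested genes to -0.177, -0.1835 and -0.304. Of all tested genes, 6628, 6192 and 6310 then passed. Since the tested genes as a whole shifted down, the larger counts of falling genes are no result about this list.

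Of the HERC family and HERC2 partners, 7 of 8 were tested, *Herc2* included, and 4 rose and 1 fell in siControl+DFO against siControl, where 53.4% of all tested genes were called (27.7% higher). With equal summed FPKM 3 rose and 1 fell, without *Herc2*, whose rise was also lost in 4 of the 12 fits that left out a library. *Herc6*, a small interferon-induced family member, stood at 3.12, 2.69 and 2.45 FPKM in siControl, 4.63, 5.60 and 5.73 FPKM in siNCOA4, 7.80, 6.83 and 6.27 FPKM in siControl+DFO, and 11.005, 8.89 and 8.70 FPKM in siNCOA4+DFO. None of the treated groups overlapped siControl, with log2 changes of 0.93 for the knockdown (adjusted p = 0.00253) and 1.31 for DFO (adjusted p = 1.8e-05). *Mapk6*, which encodes the kinase ERK3, a HERC2 partner, moved in opposite directions. Its FPKM were 42.9, 42.7 and 44.1 in siControl, 21.9, 22.9 and 20.0 in siNCOA4, 77.9, 76.8 and 78.5 in siControl+DFO, and 44.0, 37.6 and 40.0 in siNCOA4+DFO. The knockdown changed it by -1.0005 at normal iron (adjusted p = 1.0e-05) and by -0.94 under DFO (adjusted p = 2.9e-05), and DFO by 0.85 (adjusted p = 1.8e-06). Named after their values were seen, *Herc1* rose (0.44) and *Herc4* fell (-0.55) with DFO in siControl cells, adjusted p = 0.00126 and 0.000265. The interaction passed for 0 of 7 by limma (1 of 7 unadjusted), beside 2.1% of all tested genes.

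**Figure D5:**
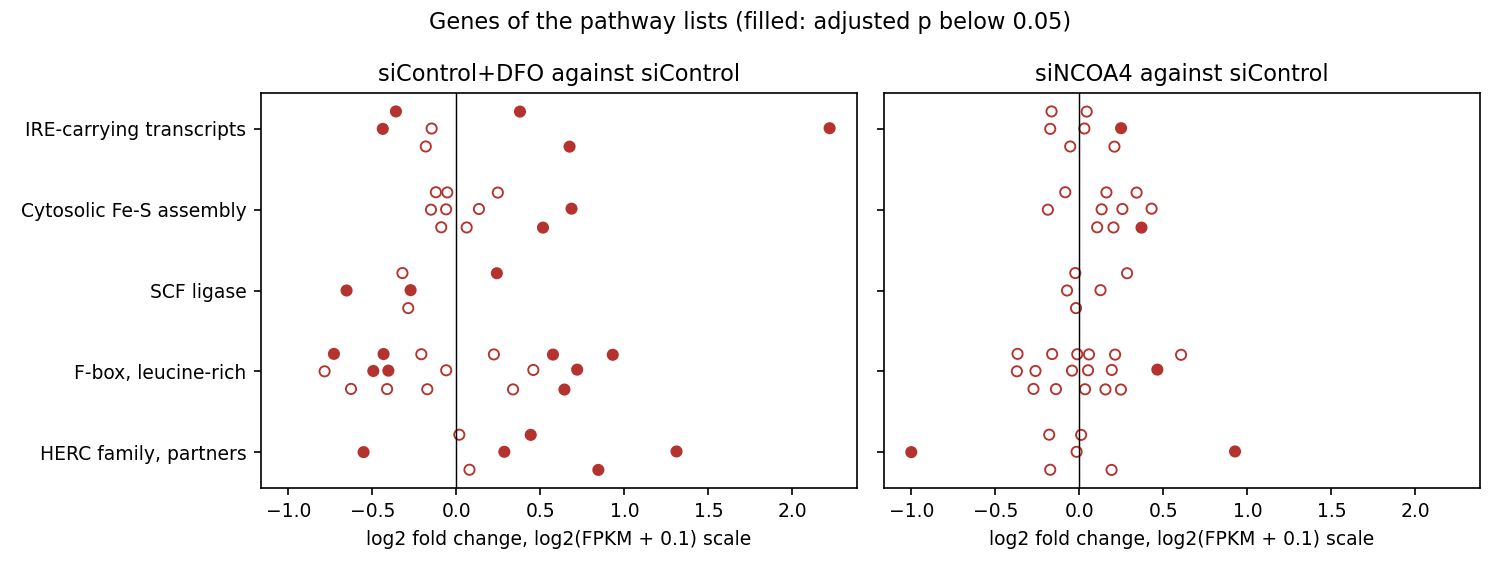
Log2 fold change of each tested gene (1 point per gene, on the log2(FPKM + 0.1) scale) of the 5 lists, for siControl+DFO against siControl on the left and siNCOA4 against siControl on the right, with filled points for genes that passed (adjusted p below 0.05, limma) and vertical offsets within a list that only separate the points. On the left 3 of the 7 IRE transcripts are filled above 0 and 2 below it, with *Tfrc* at 2.22, and on the right the filled points of the HERC list are *Herc6* at 0.93 and *Mapk6* at -1.0005.

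Finally, each member was set beside all 10836 tested genes that averaged 1 FPKM or more for likeness of pattern over the 12 libraries, which share their 4 groups. Likeness here can come from group means or from the scatter between replicates, and these parts were not told apart. *Aco1* was most like *Ankle1* (Pearson r = 0.970), *Mospd3* (0.962) and *Sipa1* (0.956). *Ireb2* was most like *Ankrd32* (0.982), *Ipo7* (0.974) and *Zfp800* (0.972). *Fbxl5*, with the smallest differences between groups, was most like *Trove2* (0.945), *Mlh3* (0.926) and *Alg6* (0.918). *Herc2* was most like *Upf1* (0.974), *Akap13* (0.957) and *Sfpq* (0.957). None of the other 3 members was among these.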

How the data were processed

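Libraries were made from total RNA of HT22 cells with a stranded total RNA kit and sequenced. The authors deposited 1 table of FPKM per library, with gene symbols. The submitters' processing notes name Trimmomatic 0.33, FastQC, HISAT2 2.1.0, featureCounts, edgeR and the mm10 genome, while the tool behind the FPKM, its annotation and its use of strand are not given in the sources used here. Of 24347 entries, 4 shared a name and were left out. The 11924 genes that reached 0.5 FPKM in 3 or more libraries were tested on log2(FPKM + 0.1), a scale that understates changes of low genes, with limma 3.58.1 in R 4.3.3, in 1 fit over the 12 libraries with a mean-variance trend. Benjamini-Hochberg adjustment was made within each comparison at 0.05, with a fold change above 2 as a second rule, after the study's thresholds. FPKM are not counts, so the count test of the study was not used and depth per library is unknown. Ratios were compared by exact two-sided permutation tests. On simulated data with 200 changed genes among 11924, the fit recovered 71.3% of changes of 1 log2 unit and 93.5% of 2 log2 units for siControl+DFO against siControl, and 43.4% and 83.2% for the interaction. For siNCOA4 against siControl it recovered 66% and 87.6%. In the data far more genes were called with DFO, and the members changed by less than 1 log2 unit. These rates therefore do not give the power to find changes of the members' size.

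The 4 genes and all lists were chosen with earlier results of these data known. Named beside them were list genes with a fold change above 2 in any comparison (otherwise the 3 that passed with the largest change), and the 3 genes most like each member. A gene that this rule also names is not reported here. Hairpins and loci came from GENCODE M21 on GRCm38, the build that mm10 denotes. Alternatives were other pseudocounts, filters and scalings, a replicate block, fits without a trend, fits restricted to the compared groups and fits leaving out each library.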

Additional observations from a re-analysis of the deposited data

Results flagged for a closer look

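Among all listed genes, those whose interaction passed were picked for this section, so the share below is no result about a list. In the fibroblast marker list given beside the members, the interaction term of limma passed for 3 of 4 genes, beside 2.1% of all tested genes, and 2 of these calls did not hold in all settings. It was 1.14 for *Col1a1* (adjusted p = 0.0198), 1.07 for *Col3a1* (adjusted p = 0.0420) and 1.67 for *Pdgfrb* (adjusted p = 0.0125) on the log2 scale. Mean FPKM of *Pdgfrb*, a growth factor receptor gene, were 25.7 in siControl, 11.99 in siNCOA4, 3.07 in siControl+DFO and 4.78 in siNCOA4+DFO. The calls for *Col1a1* and *Col3a1* were not kept in moderation without a trend (adjusted p = 0.0505 and 0.0850), and that for *Col3a1* was lost in 10 of 12 fits that left out a library. The *Col3a1* call was also lost without the filter on low values (adjusted p = 0.0736) and with equal summed FPKM (0.0604). The *Col1a1* call was also lost without siNCOA4 replicate 2 or 3 (0.0582 and 0.0562).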

How the results depend on the processing

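*Aco1* and *Ireb2* passed in siControl+DFO and in siNCOA4+DFO against siControl in all 12 fits that left out a library and under all 9 other settings. In a fit of the compared groups alone, *Herc2* in siControl+DFO against siControl was 0.29 (adjusted p = 0.0693), and 1149 genes passed in siNCOA4+DFO against siControl+DFO, where 1963 did in the fit of 12 libraries. Without a trend 164 genes passed for the interaction, where 250 did with it. With equal summed FPKM 572 passed, and the members' values were, in siControl+DFO against siControl, -0.34 for *Fbxl5* and 0.12 for *Herc2*, in siNCOA4+DFO against siNCOA4, 0.10 for *Ireb2*, -0.36 for *Fbxl5* and -0.14 for *Herc2*, in siNCOA4+DFO against siControl, -0.20 for *Fbxl5*, in siNCOA4+DFO against siControl+DFO, -0.015 for *Ireb2*, and for the interaction, -0.015 for *Aco1* and -0.016 for *Fbxl5*, where the scaling moved the median of all genes.

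Leaving out 1 library, *Herc2* ran from 0.22 to 0.40 in siControl+DFO against siControl, from -0.33 to -0.27 in siNCOA4+DFO against siControl+DFO, and from -0.074 to 0.11 in siNCOA4+DFO against siControl. *Fbxl5* ran from -0.083 to 0.058 in siNCOA4+DFO against siControl and from -0.14 to 0.0010 against siNCOA4. *Aco1* ran from -0.63 to -0.38 in siNCOA4+DFO against siNCOA4, from -0.20 to 0.058 against siControl+DFO, and from -0.032 to 0.23 for the interaction. *Ireb2* ran from -0.045 to 0.055 in siNCOA4+DFO against siControl+DFO. Counts of genes passing ran from 718 to 1648 for siNCOA4 against siControl, from 1204 to 2096 for siNCOA4+DFO against siControl+DFO and from 76 to 288 for the interaction, and their causes were not tested. The ratio of *Aco1* to *Ireb2* between siNCOA4 and siControl ran from -0.36 to -0.17.

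The replicate numbers did not pair the libraries: same-numbered libraries of different groups deviated together with correlations from -0.127 to 0.116 (median -0.012). With the replicate block no call of a member changed, and 6241 genes passed for siControl+DFO against siControl and 171 for the interaction. The FPKM carry no read depth, so precision rests on the spread between the 3 libraries of a group. In limma that spread was pooled over the 4 groups and moderated over all tested genes.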
